A study of Mus musculus with 12 samples.

Results

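Prefrontal cortex RNA of mice with abdominal irradiation was compared with that of mice without it, across all genes that reached a mean of 1 over the 6 prefrontal libraries. Of the 23183 gene symbols in the files, 12729 (54.9%) met this level and were tested, 10454 stayed below it, and 4273 of those were at 0 in all 6 libraries. The study sequenced both regions, hippocampus and prefrontal cortex, of 6 male C57BL/6 mice, with 12 libraries in all, 1 per mouse and region. The irradiated group (3 mice) received X-rays to the abdomen, a model of chronic gut injury by radiation, and the control group (3 mice) was not irradiated. The dose of 13 Gy stands in the names of the irradiated libraries. Tissue was taken in the chronic phase, for which the labels give no number of days or weeks, and they give no age. The labels mark no pooling and no transgene, and they give 1 batch number for all libraries. Each library comes from a different mouse within its group, so the spread between libraries holds differences between mice, dissections and library preparations together.

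The prefrontal cortex is a layered cortical region that guides planning, attention and mood. Its layers hold excitatory projection neurons, inhibitory interneurons, glia and a dense bed of capillaries, and its surface is covered by the leptomeninges, thin sheets of fibroblasts that stay attached to dissected tissue to a varying degree. The injured gut can reach the brain through nerves, blood-borne cytokines, bacterial products and hormones of the stress axis, while X-rays aimed at the abdomen do not target the head.

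The values were read as FPKM, the fragments of a gene per kilobase of its transcript and per mapped fragments of the library. Their sums over all genes ran from 381417 to 420431 per library, with a mean in irradiated libraries 0.949 times that in controls. The depth estimated from the steps between low values ran from 15.6 to 19.0 M fragments (M, mega), and 12640 to 12771 genes reached 1 FPKM in each library. Differences are irradiated minus control on the scale log2(FPKM + 1), which understates those of low genes, and carry the standard error (SE) of the fit. The p-values are limma's, two-sided, adjusted by Benjamini-Hochberg over the 12729 genes, with a threshold of 0.05. Of the layer markers, 16 of 16 genes of the upper cortical layers and 20 of 20 of the deep layers passed the level filter. In the hippocampus 15 and 19 of them reached a mean of 1, so these counts do not tell the 2 regions apart. Markers of the striatum, which lies below the frontal cortex, passed in 23 of 25 cases, among them Drd2, the D2 dopamine receptor, at 19.7, 21.8 and 19.8 FPKM in the irradiated mice 1, 2 and 3 and 19.0, 22.0 and 24.4 FPKM in the control mice 1, 2 and 3. Control mouse 3 stood apart, with the hypothalamic hormones Oxt and Avp and the choroid plexus gene Ttr far above the other 5 libraries. The number of calls and many, but not all, of the list medians below are therefore also given without that library. Differences of single genes are given with it included. Of the genes tested, 61 had a control mean below 1 and 106 an irradiated mean below 1, so they passed the filter through 1 group alone, and such genes are marked where they are named.

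One gene passed the threshold, the small nucleolar RNA Snora81, with values above 0 in the irradiated libraries alone. Whether a listed 0 means that the RNA was absent or that its estimate failed cannot be settled from these files, so the call is given as listed values and not as lower expression in controls. H/ACA small nucleolar RNAs such as Snora81 guide the conversion of uridine to pseudouridine in ribosomal RNA and are released from introns of host genes. Snora81 lies on chromosome 16, 23110756 to 23110933 of mm10, plus strand. It sits within Eif4a2, an RNA helicase of translation initiation: 14 of the 25 Eif4a2 transcripts in GENCODE M21 span it, in 13 of them as intron, and in 1 with an exon that overlaps it. A microRNA gene model, Gm49346, overlaps it too. The sequence of the one called gene is given from the mm10 genome, with the 164 bases shared with the RefSeq gene in capitals.
Snora81: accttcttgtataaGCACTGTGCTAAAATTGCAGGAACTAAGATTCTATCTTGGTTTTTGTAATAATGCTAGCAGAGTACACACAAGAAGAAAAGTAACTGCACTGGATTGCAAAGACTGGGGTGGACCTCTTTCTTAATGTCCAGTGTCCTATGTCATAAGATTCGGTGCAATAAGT
Snora81 stood at 11.5, 13.6 and 16.1 FPKM in the irradiated mice 1, 2 and 3 and was listed at 0 in all 3 controls. It reached the level filter through the irradiated group alone, and the control values have no spread. The adjusted p was 9.47e-07 (limma), which rests on those 0 values, and it was 0.217 in a fit over all 12 libraries, where limma called 0 genes and 1124 had an unadjusted p under 0.05. The host Eif4a2 stood at 273, 222 and 280.4 FPKM after irradiation and 214, 265.04 and 269 FPKM in controls, with overlapping groups.

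Most small nucleolar RNAs had no value above 0 in these files. Of the 110 symbols of this class, 98 were at 0 in all 6 libraries, 0 were above 0 in all 6, and 12 were above 0 in some and at 0 in others. Snora81 was the one symbol above 0 in every irradiated library and at 0 in every control, and no symbol showed the reverse. Others appeared in single libraries at high values, such as Snord91a at 0, 7918 and 0 FPKM in control mice 1, 2 and 3, and Snord57 at 0, 0 and 6300.2 FPKM in the same mice, both at 0 in the irradiated libraries. In the hippocampus of the same mice, the values of Snora81 were 9.59, 6.91 and 0 FPKM after irradiation and 0, 7.36 and 0 FPKM in controls, mice 1, 2 and 3 in that order, so the pattern of the prefrontal cortex was not seen there. How far library preparation and counting recover RNAs this short was not tested.

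The 1 called gene is 0.00786% of the genes tested on the positive side, and 0 genes (0%) were called on the negative side. At an unadjusted p under 0.05, 310 genes had a positive difference (2.44%) and 610 a negative one (4.79%). The 3 irradiated libraries lay above all 3 controls in 796 genes (6.25%) and below all of them in 947 genes (7.44%). Over all genes the median difference was 0.00, and 51.2% of differences were positive. This balance rests on the scaling of the deposited values. When each library was scaled to the same FPKM sum, the median moved to 0.07, 71.6% of differences were positive, 1034 genes had a positive and 306 a negative difference at an unadjusted p under 0.05, and the non-overlapping genes numbered 2017 above and 406 below. Snora81 remained the one call there and without control mouse 3, when 667 genes were at an unadjusted p under 0.05.

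Because no other gene passed, the 11 further genes with the smallest p among those whose irradiated libraries all lay above the controls are described as values. They were chosen for that separation. Vegfa, the growth factor that drives sprouting of blood vessels and a classic target of the hypoxia-inducible factors, stood at 21.9, 24.0 and 21.8 FPKM in the irradiated mice 1, 2 and 3 and 14.8, 15.6 and 16.9 FPKM in the control mice 1, 2 and 3. The lowest irradiated library was above the highest control, with a difference of 0.49 ± 0.08 and an adjusted p of 0.145, and the hippocampus of the same mice gave a difference of 0.59. Bhlhe40, a repressor in the circadian clock that also responds to low oxygen, stood at 51.1, 60.3 and 58.5 FPKM after irradiation and 36.1, 42.0 and 39.9 FPKM in controls, each group within a narrow band (difference 0.51 ± 0.09, adjusted p 0.177). A non-coding antisense gene overlaps Bhlhe40, and without stated strand use in counting their fragments cannot be told apart. P4ha1, the catalytic subunit of the enzyme that hydroxylates collagen prolines, stood at 12.999, 11.1 and 12.2 FPKM after irradiation and 8.50, 9.06 and 9.13 FPKM in controls, with a difference of 0.40 ± 0.08 and an adjusted p of 0.325. Hippocampal differences were 0.25 for Bhlhe40 and 0.29 for P4ha1.

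Several of these genes belong to the blood vessel wall. Klf2, a transcription factor induced by flow in endothelial cells, stood at 4.89, 6.35 and 5.52 FPKM after irradiation and 3.31, 3.92 and 2.89 FPKM in controls (difference 0.59 ± 0.12, adjusted p 0.325). Ly6a, also known as Sca-1, a surface protein of brain endothelium with close relatives in the Ly6 family that can share fragments, stood at 18.8, 17.6 and 21.6 FPKM after irradiation and 11.2, 14.3 and 13.8 FPKM in controls, a difference of 0.53 ± 0.11. Adgrl4, an adhesion receptor of endothelial cells, stood at 3.59, 4.51 and 4.32 FPKM after irradiation and 2.61, 2.95 and 2.75 FPKM in controls, a difference of 0.44 ± 0.10. In all 3 genes the groups lay apart, and none had an adjusted p below 0.325. The hippocampus of the same mice gave differences of 0.56 for Klf2, with overlapping groups there, 1.04 for Ly6a and 0.75 for Adgrl4.

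The others have varied roles. Galnt9, an enzyme that starts O-linked sugar chains on proteins in the brain, stood at 26.5, 26.2 and 25.1 FPKM after irradiation and 20.4, 18.7 and 19.0 FPKM in controls, with an adjusted p of 0.180. Rara, the retinoic acid receptor alpha, stood at 5.14, 6.11 and 5.56 FPKM after irradiation and 3.39, 4.24 and 3.80 FPKM in controls, and Gpt2, the mitochondrial alanine transaminase, stood at 13.1, 14.7 and 14.1 FPKM after irradiation and 10.1, 10.9 and 11.3 FPKM in controls. Rara and Gpt2 had differences of 0.46 ± 0.10 and 0.34 ± 0.08. Fam53b, a regulator of Wnt signalling, and Rassf5, an effector of Ras-like GTPases, had differences of 0.37 ± 0.08 and 0.38 ± 0.08, both with non-overlapping groups and neither past the threshold (adjusted p 0.325 and 0.371). Hippocampal differences were smaller, at 0.02 for Galnt9, 0.04 for Gpt2, 0.14 for Rara, 0.11 for Fam53b and 0.14 for Rassf5.

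On the other side 12 genes are named by the same rule, none past the threshold. The smallest adjusted p was 0.0946, held by Omd, Rmrp and Rps28. Rmrp is the RNA of RNase MRP, an enzyme that cuts the precursor of ribosomal RNA. It lies on chromosome 4, 43492783 to 43493063 of mm10, minus strand, and its sequence is given because it had the largest difference in size among the named genes of this side. Capitals mark the 275 bases shared with the RefSeq gene.
Rmrp: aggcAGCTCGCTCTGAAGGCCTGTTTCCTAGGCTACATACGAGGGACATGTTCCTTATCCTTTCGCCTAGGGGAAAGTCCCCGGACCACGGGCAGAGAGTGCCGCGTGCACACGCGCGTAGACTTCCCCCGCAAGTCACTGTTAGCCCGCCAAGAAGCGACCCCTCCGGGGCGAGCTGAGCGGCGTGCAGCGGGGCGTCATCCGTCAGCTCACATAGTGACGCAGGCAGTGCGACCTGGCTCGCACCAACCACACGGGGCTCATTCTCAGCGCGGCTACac
Rmrp stood at 8.96, 14.1 and 13.4 FPKM in the irradiated mice 1, 2 and 3 and 34.8, 24.4 and 34.9 FPKM in the control mice 1, 2 and 3. The highest irradiated library was below the lowest control, and the difference was -1.31 ± 0.18. GENCODE M21 holds 2 genes of this name, and the sources used here do not say how the counting treated them. Of 26 symbols in a list of small non-coding RNAs and their host genes, 7 were tested and 7 had negative differences, with a median of -0.31. The host gene Gas5, a spliced carrier of small nucleolar RNAs, stood at 8.42, 7.08 and 6.74 FPKM after irradiation and 10.6, 8.07 and 9.77 FPKM in controls, and Snhg12, another host, stood at 25.5, 24.0 and 32.5 FPKM after irradiation and 30.9, 31.2 and 40.0 FPKM in controls. Both groups overlapped in these 2 hosts.

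The remaining genes of this side encode secreted, membrane, metabolic, calcium-binding and RNA-binding proteins and 3 ribosomal proteins. Omd, a keratan sulfate proteoglycan first described in bone, stood at 2.06, 1.98 and 1.97 FPKM after irradiation and 3.83, 3.55 and 4.16 FPKM in controls, a difference of -0.69 ± 0.09. Myoc, myocilin, a secreted glycoprotein of the eye and of other support tissues, stood at 5.47, 7.01 and 7.27 FPKM after irradiation and 13.2, 11.6 and 9.89 FPKM in controls (difference -0.73 ± 0.12, adjusted p 0.177). Both have a gene on the opposite strand across them, Cenpp for Omd and Myocos for Myoc. Mdk, midkine, a heparin-binding growth factor of developing and injured tissue, stood at 10.5, 9.97 and 10.02 FPKM in the irradiated mice 1, 2 and 3 and 13.9, 14.6 and 15.1 FPKM in the control mice 1, 2 and 3, all irradiated libraries below all controls, with a difference of -0.48 ± 0.07 and an adjusted p of 0.143. Ass1, the enzyme that joins citrulline and aspartate on the way to arginine, had a difference of -0.54 ± 0.08. Fxyd1, a small regulator of the sodium pump, had -0.48 ± 0.07, S100a1, a calcium-binding protein, had -0.55 ± 0.09, Lsm5, a protein of the ring that binds U6 RNA and decaying messages, had -0.41 ± 0.07, and Cmbl, a hydrolase, had -0.44 ± 0.08. For these 5 genes the adjusted p ran from 0.143 to 0.244. In the hippocampus of the same mice Omd, Myoc, Mdk and Cmbl had positive differences, of 0.10, 0.23, 0.10 and 0.12. Rmrp, Ass1, Fxyd1, S100a1 and Lsm5 had negative ones there, of -0.39, -0.34, -0.45, -0.37 and -0.06.

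Genes of meningeal fibroblasts formed the list with the largest median difference in size among those with at least 8 members tested, and it was negative. Of 23 genes, 21 were tested, 19 had negative differences and 2 positive ones, with a median of -0.39, beside 0.00 over all genes. For 12 of the 21 the irradiated libraries lay below every control, against 7.44% of all genes, and 13 were at an unadjusted p under 0.05 on this side, against 4.79%. None passed the adjusted threshold. The 12 include Slc22a6 and Col1a1, which reached the level filter through the controls alone, so the filter favoured a negative difference in both. The prostaglandin D synthase Ptgds, the most abundant transcript of the list, stood at 279.9, 638 and 555 FPKM in the irradiated mice 1, 2 and 3 and 916, 776 and 799 FPKM in the control mice 1, 2 and 3. Every irradiated library was below every control, and irradiated mouse 1 was by far the lowest. Slc6a13, a GABA and taurine transporter of the meninges, stood at 1.36, 2.54 and 2.23 FPKM after irradiation and 4.96, 3.73 and 3.17 FPKM in controls, a difference of -0.71 ± 0.17 with an adjusted p of 0.421. Aldh1a2, which makes retinoic acid in the meninges, stood at 0.895, 2.25 and 2.11 FPKM after irradiation and 3.22, 3.31 and 3.47 FPKM in controls. The organic anion transporter Slc22a6, which passed the filter through the controls alone, as did Col1a1 of this list, stood at 0.534, 1.14 and 0.742 FPKM after irradiation and 2.65, 1.65 and 1.42 FPKM in controls, and the stress-responsive nuclear protein Nupr1 at 13.3, 10.1 and 13.05 FPKM after irradiation and 22.4, 15.4 and 18.2 FPKM in controls. In all 3 genes the groups lay apart.

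The summed level of the 23 meningeal genes was 407, 791 and 710.1 FPKM in irradiated mice 1, 2 and 3 and 1097, 946 and 964 FPKM in control mice 1, 2 and 3. Ptgds made up most of that sum in every library, so the sum largely repeats its values. The list shares Pdgfra with the oligodendrocyte precursor list and Vtn with the pericyte list, so not every member is particular to the meninges. No gene of the list was at 0 in all 6 libraries. In bulk tissue, fewer cells of a type and less RNA per cell cannot be told apart, and how much of the brain surface each piece held was not recorded in the labels. Without control mouse 3 the median was -0.43, with 14 of 21 genes below every remaining control, against 1394 of all 12729 genes in that setting. Over all libraries left out in turn it ran from -0.46 to -0.29. The hippocampus of the same mice went the other way, with 18 of 22 members positive and a median of 0.50. Of the 21 members tested in both regions, 16 had a negative difference in the prefrontal cortex and a positive one in the hippocampus, and 0 the reverse. No member was called in the test of the difference between the regions, described last.

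Genes of endothelial cells and the blood-brain barrier had small positive differences as a group. Of 27, 26 were tested, 25 had positive differences, the median was 0.15 and 10 had irradiated libraries above every control, against 6.25% of all genes. Vwf, the clotting factor stored in endothelial cells, stood at 1.35, 3.24 and 3.25 FPKM in the irradiated mice 1, 2 and 3 and 0.952, 1.08 and 1.08 FPKM in the control mice 1, 2 and 3. Irradiated mice 2 and 3 were about level and irradiated mouse 1 was close to the controls. Its difference was 0.77 ± 0.21, and it was called when irradiated mouse 1 was left out. Ly6c1, another Ly6 surface protein of brain capillaries, stood at 24.6, 27.3 and 35.0 FPKM after irradiation and 17.5, 20.8 and 22.7 FPKM in controls, a difference of 0.48 ± 0.13. Slc2a1, the glucose transporter of the barrier, stood at 26.7, 33.0 and 39.5 FPKM after irradiation and 21.6, 27.3 and 24.6 FPKM in controls, with irradiated mouse 1 within the range of the controls. Cldn5, the tight junction protein that seals brain capillaries, stood at 18.7, 16.1 and 16.5 FPKM after irradiation and 15.9, 14.0 and 14.9 FPKM in controls, a difference of 0.18 ± 0.08 with an adjusted p of 0.695. The summed level of the 27 genes was 515, 541 and 579 FPKM after irradiation and 511, 493 and 502 FPKM in controls. Without control mouse 3, 24 of 26 were positive with a median of 0.13. In the hippocampus 22 of 26 were positive with a median of 0.39, and 21 were positive in both regions. Of 13 tested pericyte and smooth muscle genes, 10 were positive in the prefrontal cortex, with a median of 0.02. That median ran from 0.00 without irradiated mouse 3 to 0.10 without irradiated mouse 1. In the hippocampus 13 of 13 of these genes were positive, with a median of 0.31.

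The list of hypoxia response genes overlaps these. Cells short of oxygen stabilise hypoxia-inducible factors, which bind DNA at ACGTG and raise genes of glucose uptake, vessel growth and collagen modification. Of 28 genes in the list, 25 were tested, 24 had positive differences, the median was 0.12, and 9 had irradiated libraries above every control, against 6.25% of all genes. Vegfa, P4ha1 and Slc2a1 led it by p. P4ha2, the sister subunit of P4ha1, stood at 3.86, 3.61 and 3.95 FPKM after irradiation and 3.39, 2.90 and 3.04 FPKM in controls, a difference of 0.23 ± 0.09 with an adjusted p of 0.609. Without control mouse 3, 21 of 25 were positive with a median of 0.12, and 18 of 25 were positive in both regions. The motif ACGTG was searched on both strands in the 250 bases before each RefSeq start (GRCm38.p6). It was found in 15 of the 21 tested members with a listed promoter (71.4%). The share was 25.5% of 9684 tested genes and 18.5% of all 27025 genes with a promoter. A gene counted if any of its starts had a match. The share depends on which genes were listed and tested, not on their differences, so it is no result of the irradiation. Members P4ha1 and Slc2a1, each with a match close to the start, are shown to let the motif be seen in place, in capitals, at 16 bases before the start in P4ha1 (chr10:59323046-59323295, plus strand, where the motif reads CACGT from the other strand) and 36 bases before it in Slc2a1 (chr4:119108495-119108744, plus strand).
P4ha1: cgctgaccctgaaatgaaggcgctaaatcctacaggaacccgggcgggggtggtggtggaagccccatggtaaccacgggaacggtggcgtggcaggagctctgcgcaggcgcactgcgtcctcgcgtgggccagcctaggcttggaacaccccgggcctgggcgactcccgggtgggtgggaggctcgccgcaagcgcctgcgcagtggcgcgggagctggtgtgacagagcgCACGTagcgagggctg
Slc2a1: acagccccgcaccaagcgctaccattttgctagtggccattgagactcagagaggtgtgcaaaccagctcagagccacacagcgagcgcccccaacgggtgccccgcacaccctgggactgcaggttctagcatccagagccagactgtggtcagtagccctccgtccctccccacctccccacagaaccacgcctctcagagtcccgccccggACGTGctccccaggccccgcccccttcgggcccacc
The window before the main Vegfa start has no match, and an alternative start has one 211 bases upstream. A match is a run of letters and not a measured binding site.

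Genes of the cytosolic ribosome, which translates most messages, had negative differences almost throughout. Of 79 ribosomal protein genes, 79 were tested, 78 had negative differences, the median was -0.31, and for 55 every irradiated library was below every control, against 7.44% of all genes. At an unadjusted p under 0.05 there were 47 negative members, against 4.79% of all genes, and 0 positive ones, and 0 passed the adjusted threshold. Rps28, a small-subunit protein, stood at 346, 322 and 388 FPKM in the irradiated mice 1, 2 and 3 and 561, 529.8 and 549.8 FPKM in the control mice 1, 2 and 3. The highest irradiated library was well below the lowest control, with a difference of -0.64 ± 0.09 and an adjusted p of 0.0946. Rpl28, of the large subunit, stood at 494, 448 and 534 FPKM after irradiation and 767, 675 and 747 FPKM in controls (difference -0.57 ± 0.09, adjusted p 0.166), and Rpl31 at 168, 179 and 206 FPKM after irradiation and 269, 253 and 286 FPKM in controls (difference -0.55 ± 0.09). Genes on the opposite strand lie across Rps28 (Kank3), Rpl28 (Ube2s) and Rpl31 (Tbc1d8). Ribosomal protein genes have many processed copies in the genome, so their single values are uncertain where the counting could split fragments.

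The size of the ribosomal list's median depended on 1 library. It was -0.18 without irradiated mouse 2 and -0.41 without irradiated mouse 3, and -0.29 without control mouse 3. In that last setting 32 members were negative at an unadjusted p under 0.05, against 450 of all 12729 genes. The median was -0.24 with equal FPKM sums, -0.17 after quantile normalization and -0.26 with the trend over transcript length removed. In the hippocampus 78 of 79 members were negative with a median of -0.24, and 77 were negative in both regions. Many ribosomal messages begin with a run of C and T, the mark of the 5′-terminal oligopyrimidine class whose translation follows nutrient signals. A run of 8 or more C or T touching the RefSeq start was found in 20 of the 58 members with a promoter (34.5%), against 8.22% of 9684 tested genes and 7.05% of all 27025. That share likewise depends on which genes were listed, not on their differences. The 30 bases around the start of Rps28 and Rpl28, the members with the smallest p, and Rpl35, with a long run, are shown, with the start at base 16 of each and the run in capitals.
Rps28: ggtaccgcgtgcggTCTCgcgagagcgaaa
Rpl28: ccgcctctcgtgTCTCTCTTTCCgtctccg
Rpl35: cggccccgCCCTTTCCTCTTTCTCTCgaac
Rps28 holds a run of 4 at its start (chr17:33824548-33824577, minus strand), Rpl28 one of 11 (chr7:4792950-4792979, plus strand) and Rpl35 one of 18 (chr2:39005117-39005146, minus strand).

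Nuclear genes of the respiratory chain had smaller negative differences. Of 76 tested, 66 had negative differences, with a median of -0.16, and 26 had irradiated libraries below every control, against 7.44% of all genes. Atp5j, a coupling subunit of ATP synthase, stood at 183, 193 and 209 FPKM after irradiation and 243, 261 and 276 FPKM in controls (difference -0.41 ± 0.08, adjusted p 0.325). Ndufa1, a subunit of complex I, stood at 129, 102 and 121 FPKM after irradiation and 156, 154 and 167 FPKM in controls, with irradiated mouse 2 lowest. Cox8a, of cytochrome c oxidase, stood at 769.9, 755 and 814 FPKM after irradiation and 1019, 995 and 999 FPKM in controls, and Atp5g2, of the rotor of ATP synthase, at 135, 156 and 159.7 FPKM after irradiation and 181, 204 and 202 FPKM in controls. All 4 had non-overlapping groups and none passed the threshold. The median was -0.04 without irradiated mouse 2, -0.15 without control mouse 3 and -0.08 with equal FPKM sums. The mitochondrial ribosome, of 74 genes tested, had 59 negative differences and a median of -0.10, which was -0.04 without irradiated mouse 2 and -0.06 without control mouse 3. Proteasome genes were negative in 30 of 35 cases, with a median of -0.08, but without irradiated mouse 2 the median was 0.00 with 16 of 35 positive. It was -0.04 without control mouse 1 and -0.05 without control mouse 3.

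Ribosomal and respiratory messages are short, and the differences ran with transcript length over all genes. Spearman's rho between the median transcript length of a gene and its difference was 0.211 across 12247 genes, a description across genes, which share the 6 libraries and are not independent replicates. The median difference was -0.06 in the 300 genes under 500 bases, -0.02 between 500 and 1000 bases, 0.00 between 1000 and 2000, 0.02 between 2000 and 4000, and 0.05 in the 919 genes over 4000 bases. In the shortest class 18.3% of genes had irradiated libraries below every control, against 2.72% in the longest. The part of RNA length or integrity in the ribosomal values was not tested beyond the trend removal given above. For the respiratory list the median with that trend removed is not given here.

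**Figure D1:**
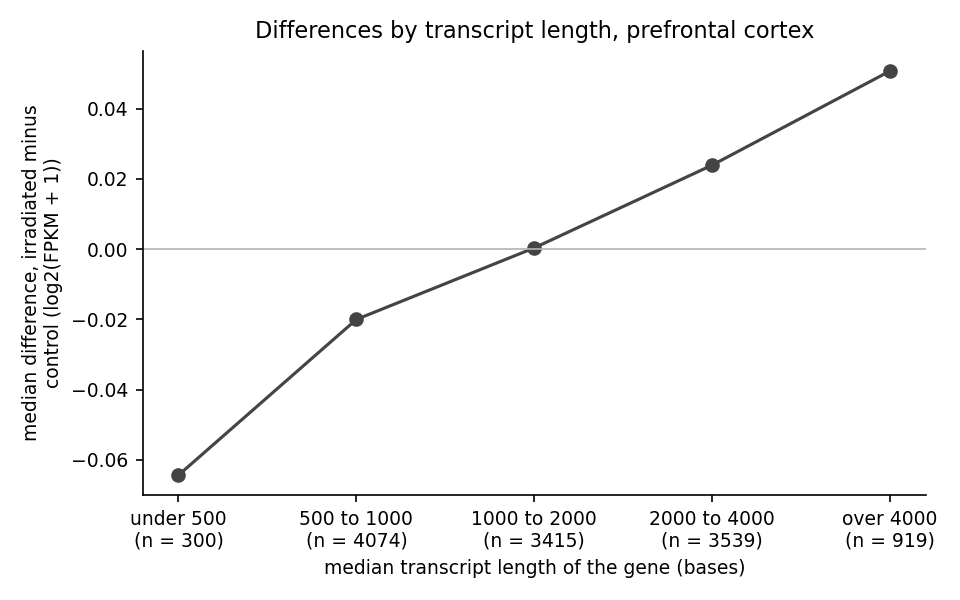
Median difference, irradiated minus control, on the log2(FPKM + 1) scale (vertical axis) in classes of median transcript length in bases (horizontal axis). The medians go from -0.06 in the shortest class to 0.05 in the longest.

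**Figure D2:**
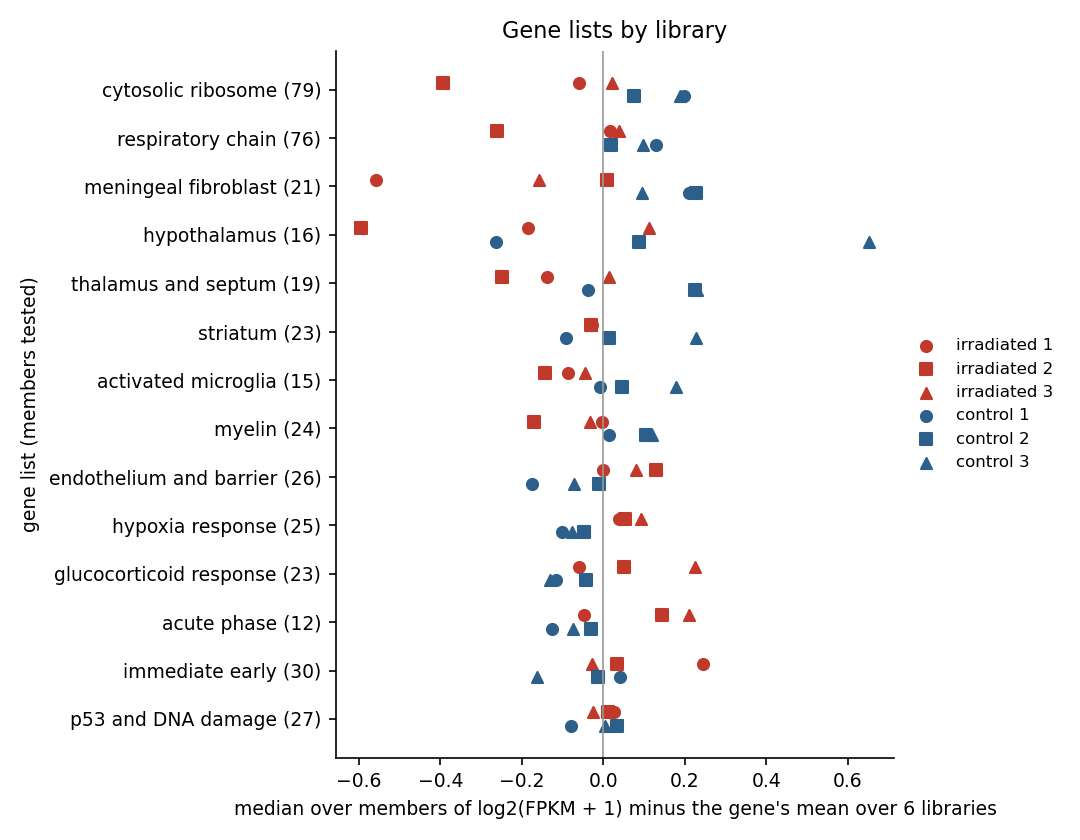
For each gene list (vertical axis, with the number of members tested), each point is 1 prefrontal library: the median over members of log2(FPKM + 1) minus the gene's mean over the 6 libraries (horizontal axis). The meningeal, ribosomal, activated microglia, myelin, endothelial and hypoxia lists separate the 3 irradiated from the 3 control libraries, narrowly so for myelin and endothelium. In the hypothalamic list control mouse 3 (0.65) and irradiated mouse 2 (-0.59) lie farthest from each other.

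Among neurons, genes of the deep cortical layers, which project out of the cortex, had positive differences in 17 of 20 cases, with a median of 0.12 and 5 members above every control, against 6.25% of all genes. Their summed level, in which abundant genes weigh most, did not run that way, at 916, 803 and 854 FPKM after irradiation and 874, 959 and 1013 FPKM in controls, with overlapping groups. Fezf2, the transcription factor that specifies subcortical projection neurons, stood at 16.4, 15.5 and 15.02 FPKM in the irradiated mice 1, 2 and 3 and 10.3, 14.0 and 9.15 FPKM in the control mice 1, 2 and 3. Every irradiated library was above every control, with a difference of 0.47 ± 0.13 and an adjusted p of 0.468. Tbr1, a transcription factor of layer 6, stood at 51.0, 52.2 and 44.7 FPKM after irradiation and 43.8, 43.9 and 38.2 FPKM in controls, and Pcp4, a calmodulin-binding protein of layer 5, had a difference of -0.32. Without control mouse 3, 17 of 20 were positive with a median of 0.13. Upper-layer genes had a median of -0.04, which was 0.03 with equal FPKM sums, 0.02 without control mouse 1 and -0.08 without control mouse 3. Among them the adhesion protein Pvrl3 stood at 6.67, 6.58 and 7.15 FPKM after irradiation and 7.71, 9.19 and 8.72 FPKM in controls, a difference of -0.29 ± 0.09. The vesicular glutamate transporter Slc17a7 stood at 581, 648 and 582 FPKM after irradiation and 599, 545 and 499.95 FPKM in controls and the GABA-making enzyme Gad1 at 114, 113 and 132 FPKM after irradiation and 109.5, 122 and 131 FPKM in controls, and the groups overlapped in both.

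Sodium and calcium channel genes, which carry the currents that fire neurons, had positive differences in 24 of 31 cases, a median of 0.09 and 5 members above every control, against 6.25% of all genes. The median was 0.01 without irradiated mouse 2 and 0.07 without control mouse 3. Cacna2d3, an auxiliary calcium channel subunit, stood at 37.6, 38.1 and 37.1 FPKM after irradiation and 31.6, 31.6 and 32.5 FPKM in controls, with an adjusted p of 0.462. Of 39 genes of monoamine and acetylcholine signalling, 34 were tested, 24 were positive and the median was 0.05, which was 0.01 with 21 positive without control mouse 1 and 0.03 without irradiated mouse 2. Htr2a, the serotonin 2A receptor of cortical pyramidal cells, stood at 9.51, 14.4 and 12.0 FPKM in the irradiated mice 1, 2 and 3 and 5.45, 10.3 and 8.89 FPKM in the control mice 1, 2 and 3. Irradiated mouse 1 lay within the range of the controls, and the difference was 0.51 ± 0.20 with an adjusted p of 0.604. Maoa, the enzyme that breaks down serotonin and noradrenaline, stood at 7.78, 7.76 and 8.06 FPKM after irradiation and 8.41, 9.21 and 9.39 FPKM in controls, a difference of -0.17. Of 44 neuropeptide system genes, 43 were tested with a median of -0.01, which was 0.06 with equal FPKM sums and ran from -0.03 without irradiated mouse 1 to 0.03 without irradiated mouse 2. The somatostatin receptors Sstr4 and Sstr2 stood at 10.8, 11.5 and 9.41 FPKM after irradiation and 5.96, 8.96 and 6.86 FPKM in controls, and at 13.3, 13.2 and 10.2 FPKM after irradiation and 9.95, 9.50 and 8.89 FPKM in controls, and Vip, a peptide of a class of interneurons, stood at 24.3, 24.97 and 25.9 FPKM after irradiation and 22.2, 19.96 and 21.1 FPKM in controls. These 3 genes had non-overlapping groups and adjusted p of 0.445, 0.527 and 0.479. Of 32 neurotrophin and growth factor genes, 25 were tested with a median of -0.04, which was 0.01 with equal FPKM sums and ran from -0.08 without irradiated mouse 2 to 0.01 without irradiated mouse 1. Bdnf, the growth factor of synaptic plasticity, stood at 6.19, 5.24 and 5.83 FPKM after irradiation and 5.595, 5.44 and 5.08 FPKM in controls, a difference of 0.08 ± 0.09, with overlapping groups. Ptn, the relative of Mdk, stood at 88.8, 93.0 and 96.1 FPKM after irradiation and 101, 112 and 109 FPKM in controls, a difference of -0.21 ± 0.07.

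The myelin and astrocyte lists had negative medians, also with equal FPKM sums. Of 24 myelin genes, 20 were negative, with a median of -0.15 and 7 members below every control, against 7.44% of all genes. Mbp, myelin basic protein, stood at 925, 865 and 895 FPKM in the irradiated mice 1, 2 and 3 and 976, 1105 and 1115 FPKM in the control mice 1, 2 and 3, a difference of -0.25 ± 0.09 with an adjusted p of 0.559. Gjb1, a gap junction protein of oligodendrocytes, stood at 7.38, 6.68 and 6.65 FPKM after irradiation and 8.82, 8.90 and 10.6 FPKM in controls, and Ppp1r14a, a phosphatase inhibitor enriched in them, at 32.9, 21.5 and 29.9 FPKM after irradiation and 41.0, 47.9 and 37.3 FPKM in controls. Mal, a myelin membrane protein, went the other way at 58.4, 61.8 and 69.3 FPKM after irradiation and 46.0, 49.1 and 59.0 FPKM in controls, a difference of 0.30 ± 0.10, with overlapping groups. Without control mouse 3, 20 of 24 were negative with a median of -0.14, and in the hippocampus 22 of 24 were negative with a median of -0.19. The median was -0.09 without irradiated mouse 2 and -0.08 with equal FPKM sums. Astrocyte genes were negative in 17 of 22 cases, with a median of -0.13 that was -0.05 with equal FPKM sums and -0.08 without either irradiated mouse 1 or irradiated mouse 2. Hes5, a Notch target of glia, stood at 12.0, 13.5 and 8.34 FPKM after irradiation and 15.4, 16.1 and 18.7 FPKM in controls, a difference of -0.55 ± 0.15. Gfap, the filament protein of reactive astrocytes, stood at 32.5, 26.7 and 46.9 FPKM after irradiation and 41.6, 41.0 and 38.6 FPKM in controls, a difference of -0.23 ± 0.16, with overlapping groups.

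Of 23 genes of activated microglia, 15 were tested, 14 had negative differences and the median was -0.16. Apoe, a lipid carrier made by astrocytes and by activated microglia, stood at 1345, 1209 and 1401 FPKM in the irradiated mice 1, 2 and 3 and 2003, 1656 and 1740.2 FPKM in the control mice 1, 2 and 3. Every irradiated library was below every control, with a difference of -0.45 ± 0.11 and an adjusted p of 0.402. Spp1, osteopontin, stood at 2.99, 3.45 and 3.28 FPKM after irradiation and 3.87, 5.40 and 5.33 FPKM in controls, a difference of -0.46 ± 0.12, and Cd63, a lysosomal membrane protein, at 54.2, 41.2 and 60.4 FPKM after irradiation and 67.7, 63.8 and 62.6 FPKM in controls. The median was -0.09 with 4 of 15 members positive without control mouse 3, and -0.26 without control mouse 2. Homeostatic microglial genes had a median of -0.05 over 22 members, which was 0.02 with equal FPKM sums and ran from -0.11 without irradiated mouse 3 to -0.01 without control mouse 3. Aif1, which encodes the common microglial stain IBA1, stood at 7.37, 7.33 and 6.99 FPKM after irradiation and 8.52, 6.17 and 7.80 FPKM in controls, and Trem2, a lipid receptor of microglia, at 12.0, 11.6 and 12.8 FPKM after irradiation and 11.5, 12.9 and 13.9 FPKM in controls, with overlapping groups in both.

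Inflammatory genes were in large part below the level filter. Tnf, Il1b, Il6, Ccl2 and C3, the classic signals of inflammation, were below a mean of 1 and were not tested. Of 30 cytokine and NF-kappa-B genes, 16 were tested, 8 were positive and the median was 0.00, moving to 0.07 with equal FPKM sums. In 3 of the 16 every irradiated library was above every control, against 6.25% of all genes, and in 1 below, against 7.44%. With a library left out the median ran from -0.02 (without irradiated mouse 2) to 0.04 (without irradiated mouse 1). Icam1, an adhesion molecule for leukocytes, which passed the filter through the irradiated group alone, stood at 1.45, 1.11 and 1.11 FPKM after irradiation and 0.862, 0.908 and 0.733 FPKM in controls, with groups that did not overlap. It is one of the 3 members above every control, a count in which the filter favoured it. Of 20 complement genes, 11 were tested, and 0 positive and 0 negative members were at an unadjusted p under 0.05, against 2.44% and 4.79% of all genes. Their median of -0.05 ran from -0.10 without irradiated mouse 3 to -0.01 without irradiated mouse 1. Of 31 interferon and antigen presentation genes, 24 were tested, 18 were positive and the median was 0.09. At an unadjusted p under 0.05 there were 1 positive member, against 2.44% of all genes, and 0 negative ones, against 4.79%. The median was 0.00 without irradiated mouse 1, 0.04 without control mouse 1 and 0.05 without control mouse 2. Psmb9, an interferon-induced proteasome subunit, stood at 1.24, 1.72 and 1.65 FPKM after irradiation and 0.891, 1.04 and 1.33 FPKM in controls and Ifit3, an antiviral protein, at 4.50, 3.71 and 3.86 FPKM after irradiation and 3.17, 3.40 and 3.44 FPKM in controls.

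Acute phase genes, made in the liver and in brain vessels and astrocytes when inflammation is systemic, separated the groups in a few members. Of 24, 12 were tested, 7 were positive, the median was 0.22, and 6 had irradiated libraries above every control, against 6.25% of all genes. The summed level of the 24 genes did not run that way, at 610.0, 659 and 762 FPKM after irradiation and 663, 774 and 772 FPKM in controls. Lcn2, lipocalin 2, which binds bacterial iron carriers and marks reactive astrocytes, stood at 1.15, 4.23 and 1.20 FPKM in the irradiated mice 1, 2 and 3 and 0, 0.350 and 0.231 FPKM in the control mice 1, 2 and 3. Irradiated mouse 2 was the highest, and control mouse 1 was listed at 0. Lcn2 is one of those 6 and passed the filter through the irradiated group alone. The filter therefore favoured its place in that count, and its separation is a description of these libraries. Lrg1, a secreted glycoprotein that acts on vessels, stood at 1.61, 3.34 and 2.12 FPKM after irradiation and 1.497, 1.08 and 0.986 FPKM in controls, a difference of 0.59 ± 0.18, and Slc39a14, an inflammation-induced zinc transporter, at 6.20, 6.42 and 6.77 FPKM after irradiation and 4.61, 5.604 and 5.25 FPKM in controls. The list's median was 0.21 without control mouse 3. It turned to -0.05 when the level filter was a mean of 5, since Lcn2, Vwf and Lrg1 lie below it.

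Stress hormone genes had mostly positive differences. Of 28 genes induced by glucocorticoids, 23 were tested, 19 were positive and the median was 0.21, with 3 members above every control, against 6.25% of all genes. Per1, a clock gene with a glucocorticoid response element, stood at 24.2, 29.9 and 25.5 FPKM after irradiation and 22.3, 22.3 and 20.4 FPKM in controls, a difference of 0.28 ± 0.09 with an adjusted p of 0.536. Cebpd, a transcription factor of the acute phase, stood at 1.41, 1.82 and 3.06 FPKM after irradiation and 0.921, 1.41 and 0.952 FPKM in controls, with irradiated mouse 3 the highest, and Bcl6, a repressor, at 9.89, 9.63 and 10.9 FPKM after irradiation and 8.47, 9.24 and 7.68 FPKM in controls. Fkbp5, the stress hormone sensor that is often read as the measure of this response, stood at 9.07, 9.63 and 10.5 FPKM after irradiation and 8.97, 8.03 and 10.2 FPKM in controls, a difference of 0.10 ± 0.10, and the receptor Nr3c1 at 23.4, 24.7 and 24.7 FPKM after irradiation and 19.4, 25.2 and 23.6 FPKM in controls, with overlapping groups in both. The median was 0.13 without irradiated mouse 3, and 0.18 without control mouse 3, where 1 member was at an unadjusted p under 0.05 instead of 6. Of all genes, 217 of 12729 were positive at that p without control mouse 3, against 2.44% with every library. Circadian genes, of which 23 were tested, had 17 positive differences and a median of 0.07, which was 0.04 without control mouse 1. Per2 stood at 5.93, 6.81 and 7.71 FPKM after irradiation and 4.23, 5.604 and 5.56 FPKM in controls, with every irradiated library above every control. The labels give no time of day for the dissections, and its part in the clock and hormone genes was not tested.

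Of 30 immediate early genes, which neurons switch on within minutes of activity, 19 were positive, with a median of 0.10 and 7 members above every control, against 6.25% of all genes. Klf4, a zinc finger factor also active in endothelium that passed the filter through the irradiated group alone, stood at 1.44, 1.36 and 2.05 FPKM after irradiation and 0.792, 0.903 and 0.980 FPKM in controls, Ier5 at 38.0, 32.6 and 30.7 FPKM after irradiation and 26.9, 26.7 and 27.4 FPKM in controls, and Nr4a3, an orphan nuclear receptor, at 9.92, 7.49 and 8.13 FPKM after irradiation and 5.64, 7.10 and 5.69 FPKM in controls. Their groups lay apart, with adjusted p of 0.470 for Ier5 and 0.470 for Nr4a3. Klf4 is one of the 7 members above every control, a count in which the filter favoured it. Fos and Npas4, the usual readouts of neuronal activity, stood at 16.5, 12.7 and 13.3 FPKM after irradiation and 13.2, 13.5 and 10.5 FPKM in controls, and at 6.66, 4.06 and 4.26 FPKM after irradiation and 6.68, 4.48 and 4.43 FPKM in controls, and overlapped between groups. Without control mouse 3 the median was 0.03 with 16 of 30 members positive, and without irradiated mouse 1 it was 0.05. The p53 pathway, the classic response to DNA damage by radiation, was even, with 16 of 27 tested genes positive and a median of 0.02, which ran from 0.01 without control mouse 1 to 0.06 without control mouse 2. Zmat3, an RNA-binding p53 target, stood at 24.0, 24.1 and 23.4 FPKM after irradiation and 20.2, 21.1 and 18.9 FPKM in controls, a difference of 0.24 ± 0.07 with an adjusted p of 0.475, and Cdkn1a, the cell cycle inhibitor p21, at 9.61, 7.83 and 10.2 FPKM after irradiation and 7.85, 7.83 and 7.56 FPKM in controls, with overlapping groups.

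Genes that could read signals from the gut were mostly below the level filter. Of 36 receptors for bacterial products, bile acids, fatty acids and gut hormones, 26 were below a mean of 1 and 10 were tested, with a median of 0.03 and 6 positive. Without control mouse 1 the median turned to -0.04 with 3 of 10 positive, and without irradiated mouse 2 it was 0.00. Cd14, the co-receptor for bacterial lipopolysaccharide, stood at 1.30, 1.39 and 1.63 FPKM in the irradiated mice 1, 2 and 3 and 0.854, 0.999 and 1.15 FPKM in the control mice 1, 2 and 3. Every irradiated library was above every control, but Cd14 passed the filter through the irradiated group alone. Nr1h3, the oxysterol receptor LXR alpha, which passed through the controls alone, stood at 0.749, 1.05 and 0.938 FPKM after irradiation and 1.17, 1.24 and 1.20 FPKM in controls. Of 27 genes of tryptophan use and the kynurenine route, which links gut microbes to brain serotonin and immune signals, 25 were in the files and 11 were tested, with a median of 0.03 that ran from 0.01 without control mouse 2 to 0.10 without irradiated mouse 3. Ido1, an enzyme that opens the tryptophan ring and is also a striatal marker, stood at 2.38, 2.19 and 2.74 FPKM after irradiation and 2.96, 2.80 and 3.89 FPKM in controls, a difference of -0.29 ± 0.12, and Slc7a5, the tryptophan transporter, at 12.0, 14.1 and 13.04 FPKM after irradiation and 13.2, 11.5 and 10.9 FPKM in controls.

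Genes of neighbouring tissue varied with the library as well as the group. Oxt, the hormone oxytocin of hypothalamic neurons, stood at 0.149, 0.459 and 0.470 FPKM in the irradiated mice 1, 2 and 3 and 0.535, 0.344 and 22.3 FPKM in the control mice 1, 2 and 3. Avp, vasopressin of the same neurons, stood at 0.495, 0.169 and 0.870 FPKM after irradiation and 0.988, 0.956 and 11.3 FPKM in controls, and Ttr, the thyroxine carrier of the choroid plexus, at 2.75, 0.663 and 1.07 FPKM after irradiation and 2.39, 0.553 and 58.1 FPKM in controls. In all 3 genes control mouse 3 was the one high library, through which Oxt and Avp passed the filter. Of 34 hypothalamic genes, 16 were tested, 15 were negative and the median was -0.39, but without control mouse 3 the median was -0.06 with 7 of 16 positive, and without irradiated mouse 2 it was -0.14. The summed level of the 34 genes was 185, 157 and 211 FPKM after irradiation and 195, 201 and 289 FPKM in controls, with 1 gene at 0 in all 6 libraries. Sncg, a synuclein of hypothalamic and septal neurons, stood at 2.18, 1.96 and 4.45 FPKM after irradiation and 3.73, 5.29 and 6.27 FPKM in controls, and Hap1, the huntingtin-associated protein, at 46.8, 31.0 and 44.4 FPKM after irradiation and 51.0, 48.0 and 58.6 FPKM in controls. The choroid plexus list had 3 of 21 genes tested, and its median of -0.21 became 0.03 without control mouse 3, -0.07 without irradiated mouse 2 and -0.38 without irradiated mouse 3. Thalamic and septal genes had 17 of 19 negative differences, and their median of -0.21 became -0.37 without control mouse 1, -0.14 without irradiated mouse 2 and -0.15 without control mouse 3. Their summed level was 72.4, 60.3 and 86.4 FPKM after irradiation and 78.7, 95.1 and 103 FPKM in controls. Zic2, a zinc finger factor of the septum, stood at 2.90, 3.39 and 4.31 FPKM after irradiation and 4.58, 5.83 and 6.02 FPKM in controls, and Calb2, calretinin, at 8.57, 5.71 and 12.9 FPKM after irradiation and 14.8, 13.4 and 18.7 FPKM in controls. Calb2 is also a member of the interneuron and olfactory lists, so its values are not particular to thalamus and septum.

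**Figure D3:**
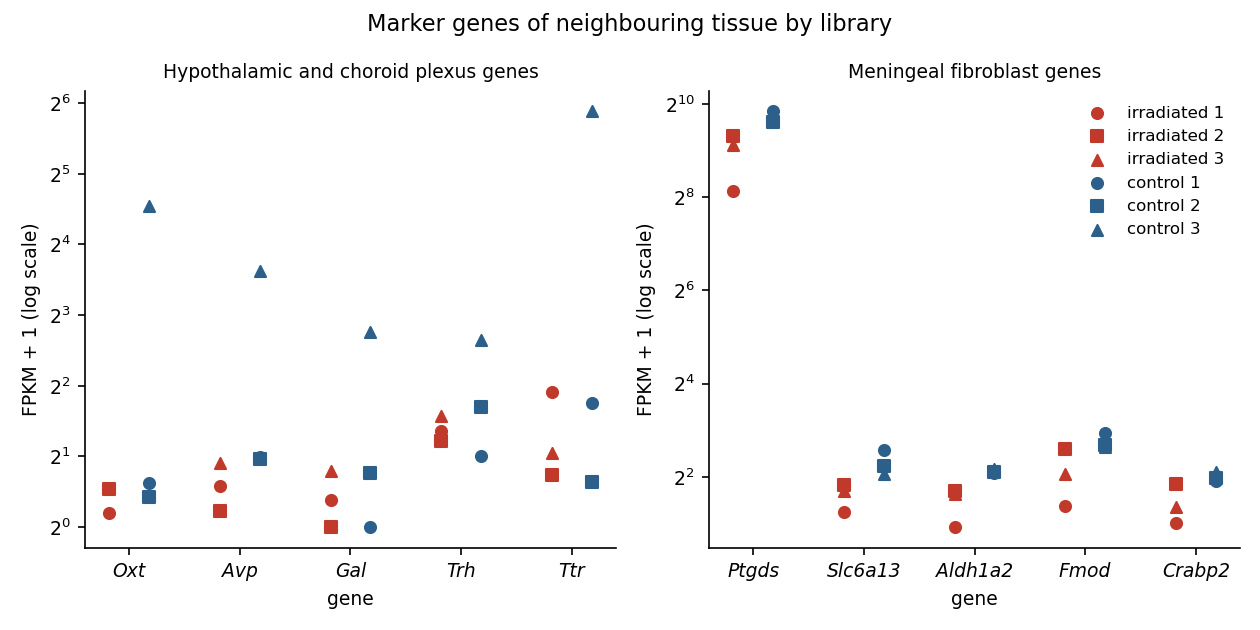
Levels of marker genes of neighbouring tissue (horizontal axis) as FPKM + 1 on a log scale (vertical axis), 1 point per prefrontal library. Control mouse 3 is alone at the top for Oxt (22.3 FPKM), Avp (11.3 FPKM) and Ttr (58.1 FPKM).

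Striatal genes had a median of -0.07 over 23 members, which was 0.01 with equal FPKM sums. It was 0.00 without control mouse 3 and -0.15 without control mouse 1. Their summed level was highest in control mouse 3, at 1683 FPKM, with the others between 1334 and 1470 FPKM. Olfactory genes, of which 14 were tested, had a median of -0.08, which ran from -0.04 without control mouse 3 to -0.15 without irradiated mouse 3, and 3 members below every control, against 7.44% of all genes, among them Cdhr1, a cadherin of the olfactory bulb, at 2.28, 2.63 and 3.42 FPKM after irradiation and 4.05, 3.91 and 3.59 FPKM in controls. Genes of hippocampal subfields had 7 of 14 positive differences and a median of -0.02, which was 0.05 with equal FPKM sums, -0.09 without control mouse 1 and 0.01 without control mouse 2. The haemoglobin and red cell list had 7 of 11 genes tested, a median of 0.24, and one of -0.07 without irradiated mouse 3. With other libraries left out it reached 0.43, without irradiated mouse 2. Hba-a2, which passed the filter through the irradiated group alone, stood at 39.7, 0.0130 and 14.8 FPKM after irradiation and 0.0140, 0.0139 and 0.0137 FPKM in controls, and its near-identical copy Hba-a1 at 9.50, 54.9 and 57.0 FPKM after irradiation and 65.7, 45.0 and 57.0 FPKM in controls, and fragments of the pair cannot be assigned to one copy with certainty. Of 26 leukocyte genes, 25 were in the files and 6 were tested, 2 of them (S100a8 and S100a9) through the irradiated group alone and Pf4 through the controls alone. S100a9, a calcium-binding protein of neutrophils, stood at 5.82, 1.62 and 0.831 FPKM after irradiation and 0.378, 0.730 and 0.644 FPKM in controls, with irradiated mouse 1 the highest. The part of blood and of neighbouring tissue in the other results was not tested beyond leaving out control mouse 3.

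Whether the prefrontal difference departs from the hippocampal one was tested per mouse, on the prefrontal minus hippocampal value, irradiated against control mice. Of 12894 genes, 0 (0%) were called by limma, and 699 had an unadjusted p under 0.05. On the negative side the smallest p was that of Crabp2, a retinoic acid carrier of the meninges. It stood at 1.00, 2.60 and 1.57 FPKM after irradiation and 2.74, 2.93 and 3.29 FPKM in controls in the prefrontal cortex, below the controls, and at 4.58, 3.999 and 3.56 FPKM after irradiation and 1.18, 1.46 and 1.67 FPKM in controls in the hippocampus, above them. The difference between regions was -1.64 with an adjusted p of 0.426, and the gene was called without irradiated mouse 1. Cnn2, a calponin of contractile and fibroblast-like cells, had -0.80, Pbx4, a homeobox factor, had -0.61 and Rgs16, a brake on G-protein signals, had -0.53, with adjusted p from 0.426 to 0.526. On the positive side the 5 genes with the smallest p were Mettl24 with 0.53, Fkbp1b with 0.41, Ntn4 with 0.44, Mrps18b with 0.37 and Fbxw9 with 0.38, each at an adjusted p of 0.526. Fkbp1b, which steadies calcium release channels, stood at 30.3, 27.5 and 27.7 FPKM after irradiation and 27.0, 24.4 and 24.8 FPKM in controls in the prefrontal cortex and at 25.9, 25.1 and 26.6 FPKM after irradiation and 31.9, 29.4 and 31.4 FPKM in controls in the hippocampus.

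**Figure D4:**
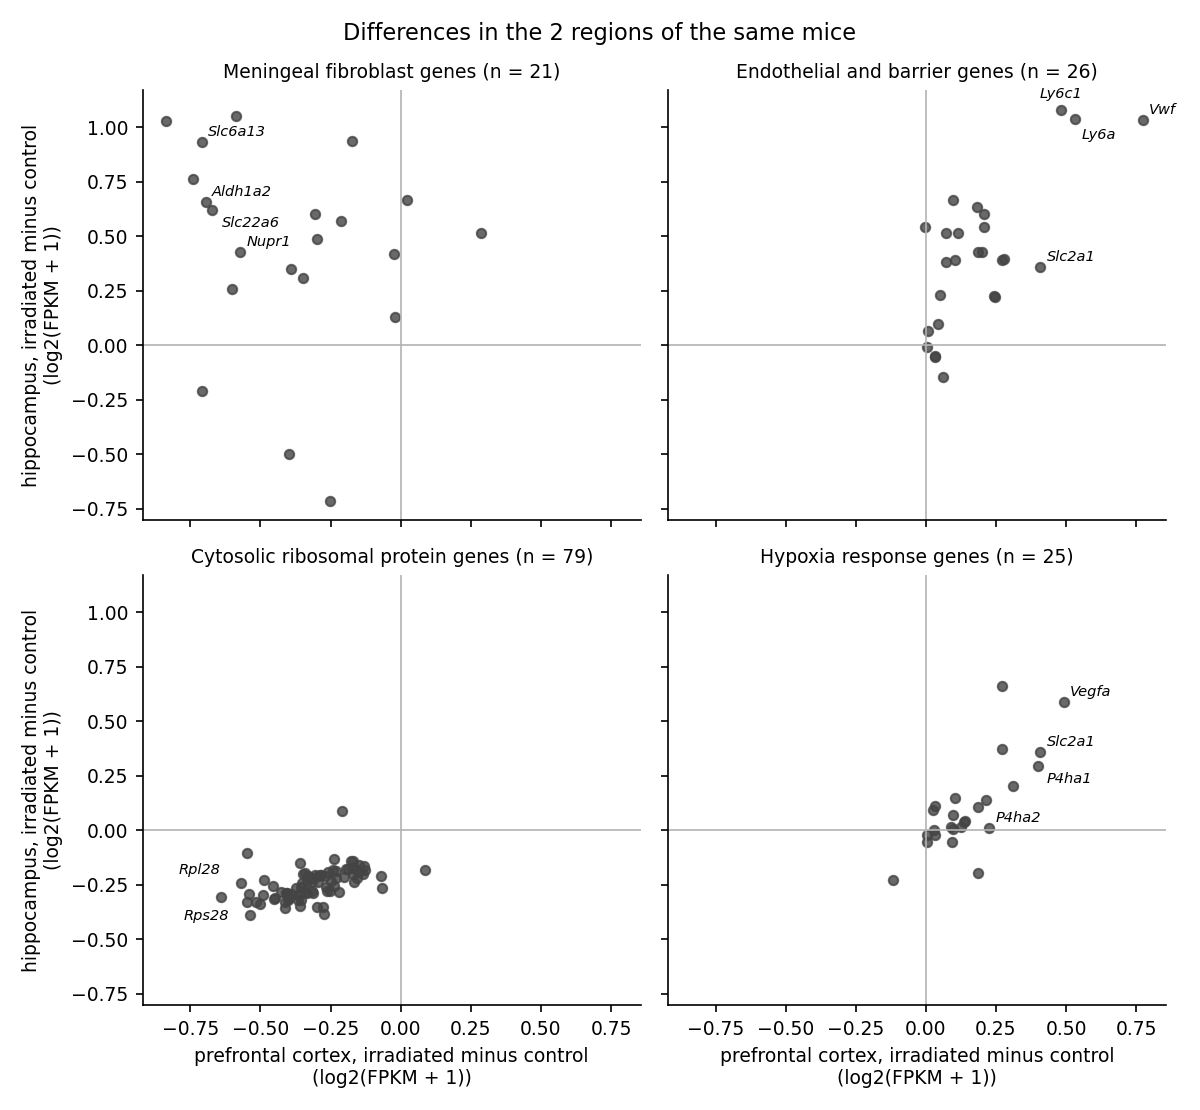
Each point is a gene of the list named above its panel, with the prefrontal difference (horizontal axis) and the hippocampal difference (vertical axis), both irradiated minus control on the log2(FPKM + 1) scale. Of 21 meningeal genes, 16 lie on the negative side for the prefrontal cortex and the positive side for the hippocampus, while 77 of 79 ribosomal genes are negative in both.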

How the data were processed

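Trizol extraction was followed by library preparation with a directional NEBNext Ultra II kit, per the labels' protocols. The submitters' processing notes name TopHat and the build mm10. Versions, counting tool, annotation and strand use: not given in the sources used here. No unit is named in the deposited tables, whose values were taken as FPKM, because the sum of value times the longest transcript's length in kilobases came to 1.22 to 1.24 M (mega) per prefrontal library. RPKM would look the same. Depth was estimated from the steps of 2174 low genes, 345 of them with a single transcript.

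The 3 irradiated and 3 control prefrontal libraries were compared with limma 3.58.1 in R 4.3.3 (trend, two-sided, Benjamini-Hochberg, threshold 0.05) on log2(FPKM + 1), over genes whose mean reached 1. The fit was tested on simulated data. The regions were compared by the same test on each mouse's prefrontal minus hippocampal difference. Figures and counts used Python 3.11.15. Of the symbols, 22110 (95.4%) matched GENCODE M21. Promoters came from RefSeq, GRCm38.p6.

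The comparison, the 62 gene lists and the tests were chosen with earlier results of these data known, and lists were not tested as sets. Named were, per direction, up to 12 genes by smallest p with non-overlapping groups, called or not. Clone and predicted-gene names were left out. From each list described, up to 4 members by smallest p were named, with a set of single genes and, for the regions, 5 genes per direction. Lists described by rule were the 8 with the largest median in size among those with at least 8 members tested, the neighbouring-tissue and blood lists, and those of p53, glucocorticoid, cytokine, complement, interferon, tryptophan, gut receptor, neurotrophin and monoamine genes. The other lists, among them endothelial, hypoxia, myelin and cortical layer genes, and Ptgds, Snord91a, Snord57, Eif4a2, Rpl35, Fabp7, the collagens and Rims1 were chosen after their values were seen. A few genes that the rules name are not reported here.

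Same-numbered irradiated and control libraries come from different mice, but their deviations from the group means correlated at 0.146, 0.119 and 0.113, so a fit with the number as a block was run. Alternatives were other pseudocounts, level filters, scalings and moderation, 1 fit over 12 libraries, each library left out in turn and, chosen after seeing the data, removal of the trend over transcript length.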

Additional observations from a re-analysis of the deposited data

How the results depend on the processing

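The number of genes called higher was 2 with no filter on low values (adding Gm17660), 2 with quantile normalization (adding Fth1) and 0 in the fit over 12 libraries, where Snora81 had a difference of 3.87 and did not pass. With a library left out, 1 to 3 genes were called higher and 0 to 1 lower. Snora81 was called in each of these. The added genes were Rims1 and Vwf without irradiated mouse 1, Hba-a2 without irradiated mouse 2, and Zfp932, Gm15446 and, lower, Snord22 without control mouse 1. Snord22 was listed at 0 in every irradiated library and at 0, 17.8 and 14.1 FPKM in control mice 1, 2 and 3. It passed the filter through the controls alone, and its call rests on those 0 values. Genes with non-overlapping groups numbered 2600 to 3564 when a library was left out, as groups of 2 overlap less by construction. For the difference between regions the count was 0 to 2 (Snora30 and Crabp2 without irradiated mouse 1, Snord22 and Snora65 without control mouse 1, Syne1 and Rps19-ps3 without control mouse 3). Snora30 was listed at 0 in every prefrontal library and above 0 only in the hippocampus of irradiated mice 2 and 3. With the replicate block, Snora81 remained the 1 call, and 1196 genes had an unadjusted p under 0.05 instead of 920, so it changed no call. Without the pairing of regions by mouse, 422 genes had an unadjusted p under 0.05 for the region difference instead of 699, and 0 were called. Of 61 list medians, 28 moved by more than the spread between replicates with equal FPKM sums and 8 or fewer under every other alternative.

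Groups of 3 mice limit what the test can call. FPKM give no counts, so the counting error of low genes is unknown, and genes below a mean of 1 were not tested.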

Other observations

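Among genes of retinoid handling, negative and positive members stood side by side in the prefrontal cortex. Of 29 thyroid and retinoid genes, 27 were tested, 10 were positive and the median was -0.05, which ran from -0.08 without irradiated mouse 2 to -0.01 without control mouse 1. Crabp1, a retinoic acid carrier, stood at 1.92, 1.12 and 2.27 FPKM after irradiation and 2.59, 4.56 and 3.43 FPKM in controls, with every irradiated library below every control. Rara lay on the other side, with a difference of 0.46. Fabp7, the brain-type fatty acid binding protein of glia, stood at 22.7, 11.2 and 18.8 FPKM after irradiation and 32.2, 29.0 and 29.8 FPKM in controls, a difference of -0.80 ± 0.20 with an adjusted p of 0.421 (limma). Col4a1, a collagen of the vessel basement membrane, stood at 4.83, 5.72 and 4.51 FPKM after irradiation and 3.70, 3.54 and 3.39 FPKM in controls, while Col1a2 and Col1a1, collagens of fibroblasts (Col1a1 passed the filter through the controls alone), stood at 2.37, 2.88 and 2.82 FPKM after irradiation and 3.57, 3.59 and 3.44 FPKM in controls, and at 0.920, 1.11 and 0.849 FPKM after irradiation and 1.80, 1.23 and 1.27 FPKM in controls. The groups lay apart in each of these genes, the Col4a1 difference was positive at 0.40, and that of Col1a2 was negative at -0.30. Rims1, an organiser of the presynaptic release site, stood at 47.0, 105 and 88.0 FPKM after irradiation and 47.0, 52.5 and 44.8 FPKM in controls, with irradiated mouse 1 closest to the controls.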
